A study of Mus musculus with 36 samples.

Results

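A set of 8 genes of the Slco family was followed through the liver methylation data of 24 mice. The 8 members are Slco1a1, Slco1a4, Slco1a5, Slco1a6, Slco1b2, Slco1c1, Slco2a1 and Slco2b1. Their CpGs were taken from 5000 bp before the gene start to 1000 bp past the gene end in the mm9 gene annotation, and grouped in fixed windows of 500 bp. Of the 3110133 autosomal windows that could be tested, 771 lay in these 8 regions.

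Slco genes encode organic anion transporting polypeptides, carriers in the cell membrane that take up bile salts, bilirubin, steroid and thyroid hormone conjugates and many drugs from blood. In liver they sit mainly on the blood-facing side of hepatocytes, next to other uptake carriers. Export pumps of the ABC family move substrates on into bile or, across the blood-facing side, back to blood. In mouse liver Slco1a1 RNA is known to be more abundant in males and Slco1a4 RNA in females, and Slco1b2 is largely specific to hepatocytes. Methylation of the cytosine in CpG dinucleotides is low at active promoters and enhancers and high over most of the genome.

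Liver DNA of every animal was examined by whole-genome bisulfite sequencing, which reads an unmethylated cytosine as T and a methylated one as C. The mice were of the inbred strains B6 (C57BL/6N) and C3 (C3H/HeN), and of both reciprocal hybrids, B6C3F1 from a B6 dam and a C3 sire and C3B6F1 from a C3 dam and a B6 sire. There were 3 animals in each of 8 groups, namely B6 sires, B6 dams, C3 sires, C3 dams, and the sons and daughters of each cross. All were killed at 20 weeks of age. The parents had been mated at week 10 and their litters weaned at week 16, while the F1 daughters were virgin. In the parents, sex and life history can therefore not be told apart, since dams had been pregnant and had nursed. Parents were inbred, and the F1 animals were hybrids of the next generation. Comparisons of parents with F1 animals thus mix life history with hybrid state and generation. The DNA came from liver tissue and not from sorted cells, so that a change in cell make-up and a change within one cell type cannot be told apart either.

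Counts on 18887127 autosomal CpGs totalled 365740739 to 619888157 per animal, or 19.4 to 32.8 reads per CpG, and 75.0 to 77.5% of them were methylated. The members had 24.9 to 29.9 reads per CpG in their regions. The 12 promoters of hepatocyte marker genes averaged 25.3 to 35.6% methylation across the animals and 8 of leukocyte markers 72.2 to 77.3%. Means were 53.8 to 59.8% for 5 endothelial, 23.9 to 29.4% for 6 stellate and fibroblast and 42.3 to 47.1% for 4 bile duct promoters. Single promoters ranged widely, from 17.6 to 58.1% among hepatocyte and from 29.3 to 88.7% among leukocyte markers. The ranges were 3.32 to 78.2% for endothelial, 0.679 to 66.8% for stellate and fibroblast and 0.944 to 73.1% for bile duct promoters. The means therefore do not measure the share of a cell type. None of these marker promoters had an adjusted p below 0.05 between sires and dams or between sons and daughters. Of all promoters only 0.555% and 0.222% had one, so that finding none here says little about cell make-up. Between the strains 3 hepatocyte promoters (Apoa2, Cps1 and Fgb) and 1 leukocyte promoter (Cd14) had an adjusted p below 0.05, each higher in B6. That level was reached by 12.1% of all promoters, and the hepatocyte mean was 31.7% in B6 and 26.8% in C3 parents. The part of cell make-up in the results was not tested.

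Of the members, 6 form one cluster on mm9 chromosome 6, and the other two lie on chromosomes 7 and 9. Across the cluster, Slco1c1 (ENSMUSG00000030235.9, chr6:141472907-141518241, plus strand) comes first and Slco1b2 (ENSMUSG00000030236.7, chr6:141578039-141635167, plus strand) second. Slco1a4 (ENSMUSG00000030237.7, chr6:141753961-141804720), Slco1a1 (ENSMUSG00000041698.5, chr6:141855803-141895483), Slco1a6 (ENSMUSG00000079262.3, chr6:142034282-142157042) and Slco1a5 (ENSMUSG00000063975.6, chr6:142182748-142271501) follow on the minus strand. Slco2b1 (ENSMUSG00000030737.10) lies at chr7:106806314-106859850 on the minus strand and Slco2a1 (ENSMUSG00000032548.7) at chr9:102910817-102990179 on the plus strand. The coding sequences of the 4 Slco1a genes were 84.0 to 89.3% identical to each other, and other pairs of members 58.1 to 64.7%. Whether reads of the 4 Slco1a genes were placed on the wrong copy was not tested.

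Over whole gene regions the members differed most at Slco1b2, where methylation averaged 66.4% over the 24 animals, against 75.2% at Slco1a1, 79.1% at Slco2b1, 79.3% at Slco1a4, 80.5% at Slco1a5, 82.3% at Slco1a6, 83.8% at Slco1c1 and 84.2% at Slco2a1. Slco1b2, the hepatocyte carrier for bilirubin and bile acids, had 9 of 71 windows under 30%, and 15.0% methylation within 500 bp of its start. At Slco2a1, the prostaglandin transporter, the start lay among 61 CpGs that averaged 1.57%. No other member had a start so rich in CpGs.

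The promoter, taken from 1000 bp before to 500 bp after the gene start, gave a different order. Slco2a1 was lowest with 7.29% over 74 CpGs. Slco1a1 followed with 25.5% over 5 CpGs, Slco1b2 with 28.8% over 6 and Slco1a4, a carrier of bile salts and digoxin in liver and brain capillaries, with 38.2% over 10. Slco1a5, a bile salt carrier of gut and choroid plexus, stood at 67.0% over 12 CpGs. Slco1c1, the thyroxine transporter of brain capillaries, had 72.4% over 6 CpGs. Slco1a6, best known from kidney, had 80.1% over 9 CpGs, and Slco2b1, a carrier of steroid sulfates and drugs, 82.2% over 19. Neighbours in this order overlapped in the range of their 24 animals, except Slco1a4 and Slco1a5, whose highest and lowest animals were at 46.0 and 62.0%. The order is that of means over both sexes. In dams alone Slco1a1 had 27.6 to 39.1% and Slco1b2 22.4 to 29.1%, so that Slco1a1 did not come before Slco1b2 there.

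**Figure D1:**
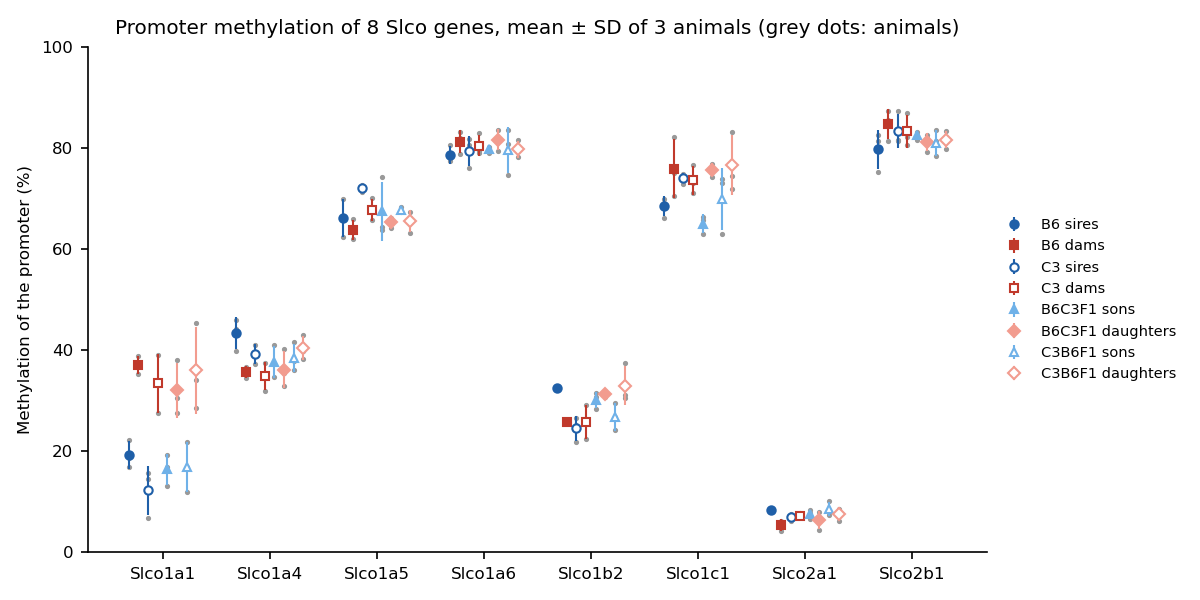
Methylation (%) of the promoter of each member, as the mean and SD of the 3 animals in each of the 8 groups, with single animals as grey dots. At Slco1a1 the 6 sires lie between 6.78 and 22.2% and the 6 dams between 27.6 and 39.1%. The other 7 promoters had no adjusted p below 0.05 between the sexes.

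At Slco2b1 the annotated gene start was not where methylation was low. The 12 CpGs within 500 bp of that start averaged 79.0%, and the next transcript start, 4179 bp into the gene, had 76.4%. The next 3 transcript starts, the first of them 15531 bp into the gene, had 20.8 to 24.1%, and the last one, 46408 bp into the gene, had 45.6%. The lowest windows of the other members lay at different distances. Slco1a1 had 11.5% in the window centred at -767 bp, Slco1a4 16.6% at -2030 bp and Slco1c1 15.98% at -1657 bp, counted from the gene start in the direction of transcription. Slco1a5 reached 9.13% at 46751 bp, which is 413 bp from the start of a shorter Slco1a5 transcript annotated as subject to nonsense-mediated decay. Slco1a6 reached 17.5% at 37792 bp, Slco1b2 12.7% at 5711 bp, Slco2a1 1.03% at -67 bp and Slco2b1 19.04% at 30600 bp.

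A window was called where limma gave a Benjamini-Hochberg adjusted p below 0.05 over all tested windows and the group means differed by at least 20 percentage points (hereafter points). Between sires and dams, 6 of the 771 member windows were called, or 0.778%, against 0.115% of all windows. All 6 were lower in sires, a direction called in 0.0837% of all windows. They lay in 3 genes, 3 windows in Slco1a1, 2 in Slco1b2 and 1 in Slco1c1. At an adjusted p below 0.05 with any size of difference there were 17 member windows (2.20%), 14 of them lower in sires, against 0.679% of all windows. The median difference over member windows was 0.12 points, against 0.79 points over all windows, and 97 member windows (12.6%, against 11.5% of all) had an unadjusted p below 0.05. No called window had 5 CpGs or 100 reads in every animal, so that under either of these minimums the count was 0 (of 296 and of 212 member windows). On windows shifted by 250 bp the count was 7, of which 5 lay in Slco1a1, 1 in Slco1c1 and none in Slco1b2, and 1 in Slco1a4 was higher in sires.

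**Figure D2:**
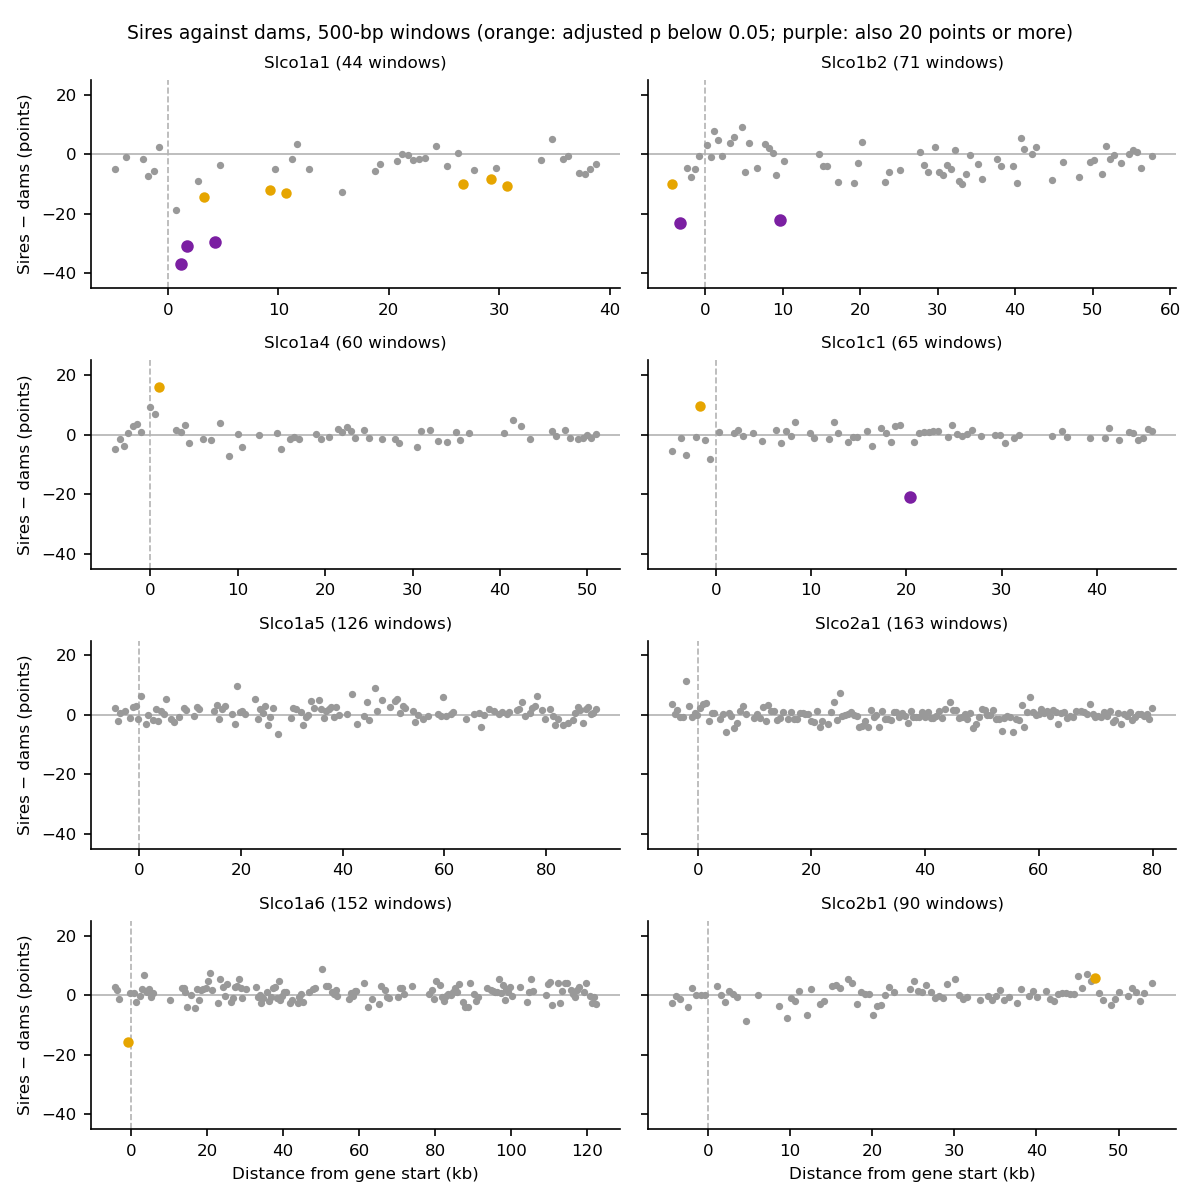
Difference between sires and dams (points, sires minus dams) in each tested 500-bp window of the 8 members, against distance from the gene start (kb, in the direction of transcription). The 6 called windows are purple and lie in Slco1a1, Slco1b2 and Slco1c1, and 11 more with an adjusted p below 0.05 are orange.

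Between F1 sons and virgin F1 daughters, 2 member windows were called (0.259%), both lower in sons and both in Slco1a1. Among all windows 0.0618% were called and 0.058% were called lower in sons. At any size of difference, 6 member windows (0.778%) had an adjusted p below 0.05, against 0.249% of all windows, and each was lower in sons. Of these, 5 lay in Slco1a1 and 1 in Slco1b2. The median difference was 0.11 points over members and 0.15 over all windows. The count of called windows was 0 with at least 5 CpGs or 100 reads, 1 with thinned reads and 3 on windows shifted by 250 bp. With 1 animal left out it was 1 to 4, namely 1 without B6C3F1 son 3 or C3B6F1 son 2 and 4 without C3B6F1 son 1.

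Slco1a1 was the member with the most sex-related windows. Its product takes up bile salts and sulfated or glucuronidated steroids into hepatocytes. All 3 called windows lie in an intron within 5 kb of the start. The sequences that hold their CpGs are given here from mm9, plus strand, with each CpG in capitals, because the sex difference differed from one of these CpGs to the next. The last CpG of the first sequence lies just past the edge of its window.
Slco1a1 1233 bp, chr6:141894454-141894520: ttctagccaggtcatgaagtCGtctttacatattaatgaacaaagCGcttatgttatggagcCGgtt
Slco1a1 1733 bp, chr6:141893495-141893734: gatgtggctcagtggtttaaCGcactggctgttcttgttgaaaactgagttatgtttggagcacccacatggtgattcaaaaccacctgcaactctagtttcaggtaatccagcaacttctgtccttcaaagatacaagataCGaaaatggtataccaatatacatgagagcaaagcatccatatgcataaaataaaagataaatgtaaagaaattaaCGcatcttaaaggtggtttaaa
Slco1a1 4233 bp, chr6:141891036-141891194: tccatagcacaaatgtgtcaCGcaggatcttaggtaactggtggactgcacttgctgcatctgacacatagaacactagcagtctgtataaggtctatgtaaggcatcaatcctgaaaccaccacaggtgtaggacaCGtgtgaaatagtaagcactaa

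In the window centred 1233 bp after the start (chr6:141894001-141894500, 2 CpGs), sires ranged from 13.8 to 43.5% with a median of 22.0%. Dams ranged from 50.7 to 74.6% with a median of 63.4%. Every sire was below every dam. The means were 26.0% ± 12.0 (SD, n = 6) in sires and 62.9% ± 10.1 in dams, a difference of -37.0 points (limma adjusted p = 7.98e-05), and the difference was -27.8 points within B6 and -46.1 within C3. In the F1 animals, sons ranged from 14.9 to 51.4% (median 22.9%) and daughters from 41.7 to 61.8% (median 51.2%). One C3B6F1 son, at 51.4%, lay among the daughters and the other 5 sons lay below all of them. The F1 difference was -25.7 points (limma adjusted p = 0.0171). It had an adjusted p above 0.05 when any 1 of 5 animals was left out: 0.0748 without B6C3F1 son 3, 0.0787 without B6C3F1 daughter 2, 0.076 without C3B6F1 son 2, 0.0795 without C3B6F1 son 3 and 0.0697 without C3B6F1 daughter 2. With all animals thinned to equal reads the adjusted p was 0.132.

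In the next window, centred at 1733 bp (chr6:141893501-141894000, 3 CpGs), sires ranged from 37.1 to 56.0% with a median of 47.0% and dams from 70.6 to 84.5% with a median of 78.8%. Sons ranged from 41.7 to 61.4% (median 47.4%) and daughters from 64.7 to 78.9% (median 73.8%). Males and females did not overlap in either generation. The difference was -30.7 points in parents (47.0% ± 6.14 against 77.7% ± 5.05, limma adjusted p = 6.01e-06) and -24.0 points in F1 animals (49.6% ± 8.39 against 73.6% ± 5.04, limma adjusted p = 0.00085). Within B6, C3, B6C3F1 and C3B6F1 it was -30.8, -30.6, -24.6 and -23.5 points. Leaving out 1 animal at a time, the F1 difference stayed called in this window in each of 12 fits.

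The window centred at 4233 bp (chr6:141891001-141891500, 2 CpGs) ranged from 40.3 to 67.6% in sires (median 53.0%) and from 74.6 to 89.8% in dams (median 83.2%), again with no overlap. Its means differed by -29.5 points (53.6% ± 9.04 against 83.1% ± 5.61, limma adjusted p = 3.85e-05). Sons had 56.9% ± 8.55 and daughters 76.7% ± 6.78, a difference of -19.8 points (limma adjusted p = 0.0255), just under the 20 points asked for. The highest son (68.6%) lay above the lowest daughter (64.0%). The 95% Wilson interval of a single animal in the 3 windows reached 6.07 to 15.1 points to either side, on 38 to 127 reads, and covers counting error only.

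Single CpGs around the Slco1a1 start showed where the sexes parted and where they did not. Neighbouring CpGs had very unequal differences. These CpGs are described without a test, and those named were picked after their values were seen. At -381 bp, sires averaged 31.0%, dams 80.6%, sons 38.2% and daughters 80.8%. At -403 bp the means were 17.8, 44.8, 15.6 and 41.7% in the same order. These 2 CpGs share a window that missed the minimum of 30 reads, with 27 in the lowest animal, and so was not among the tested ones. They are given from mm9, plus strand, with both CpGs in capitals.
Slco1a1 start, chr6:141895844-141895907: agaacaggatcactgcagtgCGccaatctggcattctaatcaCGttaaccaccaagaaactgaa

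Inside the gene, the CpG at 1846 bp had 35.9% in sires, 81.2% in dams, 39.7% in sons and 74.0% in daughters. Its neighbour at 1770 bp had 79.8, 84.8, 80.0 and 78.2%, so that the called window at 1733 bp holds 1 CpG with little difference. The CpG at 4310 bp had 32.4, 72.9, 36.0 and 61.9%. Between these sites, 4 CpGs from 2817 to 2904 bp averaged 14.1 to 19.1% in sires and 16.1 to 20.3% in dams. Upstream, the CpG at -871 bp had 7.10% in sires, 5.09% in dams, 6.35% in sons and 11.4% in daughters. Methylation over the first kilobases of Slco1a1 thus held sites that were low in both sexes next to sites that were low in males.

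**Figure D3:**
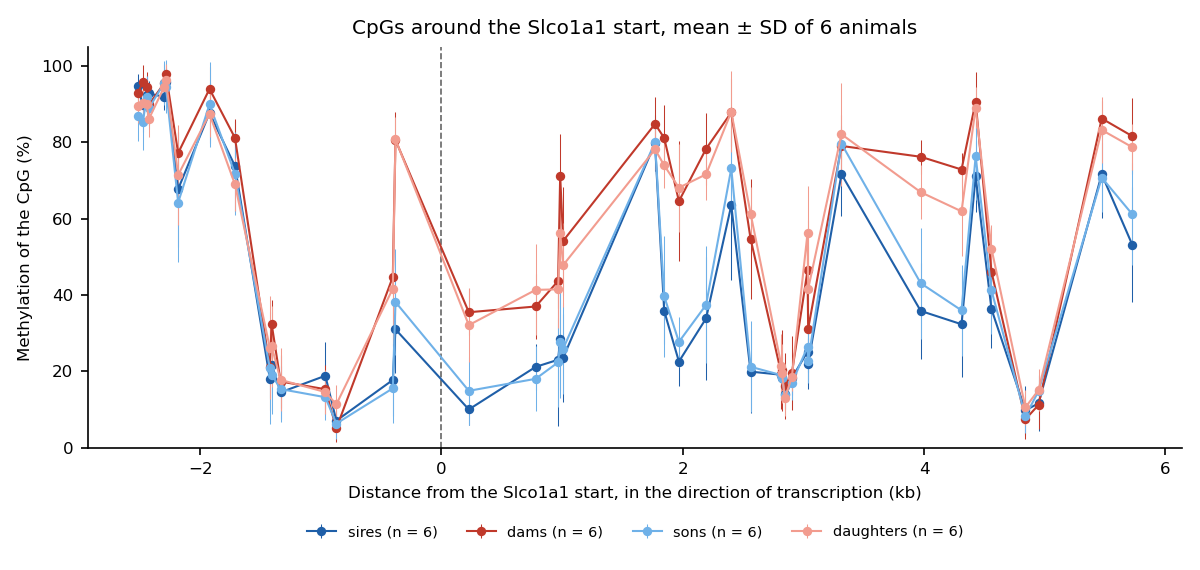
Methylation (%) of each CpG around the Slco1a1 start, against distance from the start (kb, in the direction of transcription), as mean and SD of 6 sires, 6 dams, 6 sons and 6 daughters. Sires and sons run below dams and daughters at most CpGs after -403 bp, and all 4 groups are low together at -871, 2846 and 4839 bp.

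The Slco1a1 promoter as a whole (5 CpGs, 100 to 216 reads per animal) had 18.8, 22.2 and 16.8% in B6 sires and 35.3, 38.9 and 37.2% in B6 dams. C3 sires had 14.5, 6.78 and 15.8% and C3 dams 33.7, 27.6 and 39.1%. Every sire lay below every dam. In B6C3F1 the sons had 13.2, 19.3 and 16.9% and the daughters 38.1, 27.6 and 30.5%. In C3B6F1 the sons had 21.9, 16.9 and 12.0% and the daughters 34.1, 45.4 and 28.6%. Sons and daughters did not overlap either. The difference was -19.5 points in parents (limma adjusted p = 2.22e-05 over 20708 promoters) and -17.4 points in F1 animals (limma adjusted p = 0.000457).

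Slco1a1 was the one member whose promoter had an adjusted p below 0.05 in either sex comparison, a level that 0.555% of all promoters reached in parents and 0.222% in F1 animals. At the 20-point minimum 0 of the 8 promoters were called in parents, F1 animals or strains, against 0.0724%, 0.0483% and 0.348% of all promoters. The Slco1a1 promoter passed that minimum with -20.2 points without B6 sire 2, -20.0 without C3 sire 1, -20.3 without C3 sire 3 and -21.0 without C3 dam 2. When the promoter was taken as 500 bp on each side of the start, the parental difference was -33.9 points.

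Further along Slco1a1, 6 more windows had an adjusted p below 0.05 between sires and dams at smaller differences, -8.35 to -14.4 points, out to 30733 bp. All 9 such windows of the gene were lower in sires. Averaged over the whole gene region, Slco1a1 had 72.6% ± 1.22 in sires, 78.7% ± 0.809 in dams, 72.4% ± 1.72 in sons and 77.2% ± 1.00 in daughters. The median window of the gene differed by -4.72 points between sires and dams. Slco1b2 was next with -2.80 points, and the other 6 members had medians from -0.18 to 1.01 points.

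Slco1b2 had a called window upstream of the gene and another in an intron. The one centred at -3289 bp (chr6:141574501-141575000, 2 CpGs) ranged from 57.8 to 69.5% in sires (median 62.3%) and from 74.6 to 92.6% in dams (median 87.5%), without overlap. The difference was -23.0 points (62.4% ± 4.30 against 85.4% ± 7.18, limma adjusted p = 4.81e-05). Sons ranged from 57.4 to 75.5% and daughters from 79.2 to 88.2%, without overlap, and differed by -19.1 points (limma adjusted p = 0.00288). One of the 2 CpGs carried the difference. At -3487 bp the means were 17.9% in sires, 73.1% in dams, 23.97% in sons and 68.2% in daughters, whereas at -3113 bp they were 91.6, 92.4, 93.4 and 91.9%. The first of these CpGs is given below with its flanks, and both CpGs of the intronic window are given with theirs (mm9, plus strand, CpGs in capitals).
Slco1b2 -3289 bp, chr6:141574492-141574613: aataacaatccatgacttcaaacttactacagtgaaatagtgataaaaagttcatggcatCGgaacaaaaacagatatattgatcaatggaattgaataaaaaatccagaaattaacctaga
Slco1b2 9711 bp, chr6:141587641-141587739: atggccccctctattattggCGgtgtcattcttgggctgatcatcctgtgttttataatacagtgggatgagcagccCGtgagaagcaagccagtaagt

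The intronic Slco1b2 window, centred at 9711 bp (chr6:141587501-141588000, 2 CpGs), ranged from 25.6 to 56.6% in sires (median 46.4%) and from 56.9 to 71.4% in dams (median 64.6%). The highest sire and the lowest dam were thus next to each other, without overlap. The difference was -22.0 points (42.7% ± 11.2 against 64.7% ± 5.76, limma adjusted p = 0.000929), and -19.5 points without C3 sire 2, which ends the call. Sons had 48.2% ± 7.09 and daughters 56.1% ± 5.31, a difference of -7.89 points that did not pass the test (limma adjusted p = 0.741). The test of parental against F1 sex difference gave -14.1 points (limma adjusted p = 0.596). Another Slco1b2 window, at -4289 bp, had 82.8% in sires and 92.7% in dams (-9.90 points, limma adjusted p = 0.000863).

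Slco1c1 had a single called window, centred at 20343 bp (chr6:141493001-141493500, 3 CpGs). The window overlaps a coding exon, and which of its CpGs lie in the exon was not examined. It had the smallest difference of the 6 and is named beyond the 5 that the rule allows, after its values were seen. Sires ranged from 57.4 to 72.3% (median 65.1%) and dams from 80.0 to 89.5% (median 86.8%), without overlap. The difference was -21.1 points (64.2% ± 5.67 against 85.3% ± 3.99, limma adjusted p = 7.39e-06). Sons had 72.8% ± 4.56 and daughters 81.5% ± 5.04, a difference of -8.76 points that did not pass (limma adjusted p = 0.174). By CpG, the one at 20408 bp had 57.2% in sires and 85.8% in dams, the one at 20569 bp 50.9 and 80.0%, and the one at 20175 bp 92.6 and 89.8%. The CpG at 20569 bp is shown with its flanks (mm9, plus strand, CpG in capitals).
Slco1c1 20343 bp, chr6:141493416-141493537: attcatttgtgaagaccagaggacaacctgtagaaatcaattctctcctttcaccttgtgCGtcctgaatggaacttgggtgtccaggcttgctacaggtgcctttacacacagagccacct

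**Figure D4:**
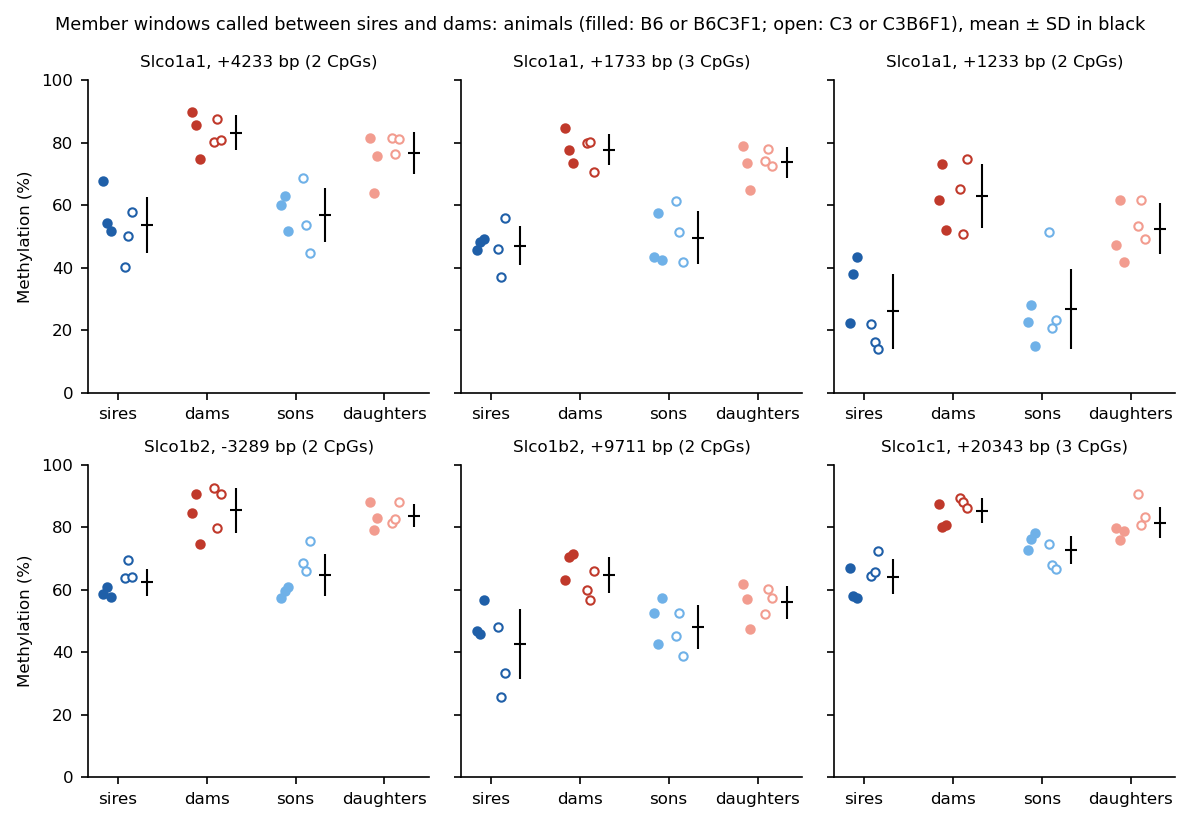
Methylation (%) of single animals in the 6 member windows called between sires and dams, with the mean and SD of each group of 6 in black; filled points are B6 or B6C3F1 and open points C3 or C3B6F1. In each window all sires lie below all dams, and sons and daughters overlap in the Slco1a1 windows at 1233 and 4233 bp, the Slco1b2 window at 9711 bp and the Slco1c1 window at 20343 bp.

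The other members gave no called window between the sexes on the main grid. At Slco1a4 the window at 970 bp (chr6:141803501-141804000, 5 CpGs) went the other way, with 30.2 to 36.7% in sires (median 31.7%) and 13.5 to 20.8% in dams (median 17.2%). The groups did not overlap, and the difference of 16.03 points had an adjusted p of 0.000752 (limma). In F1 animals the difference was 3.93 points (22.3% in sons, 18.3% in daughters, limma adjusted p = 0.771). The window overlaps a non-coding part of an exon and was named after its values were seen. On the shifted windows a neighbouring one of 2 CpGs (chr6:141803251-141803750) was called, 31.1 points higher in sires (limma adjusted p = 6.05e-05). At Slco1c1 the lowest window, at -1657 bp, was also higher in sires, 19.9 against 10.2% (limma adjusted p = 0.0448).

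At Slco1a6 the window at -708 bp had 48.0% in sires and 63.6% in dams (-15.6 points, limma adjusted p = 0.0221). Slco2b1 had 1 window with an adjusted p below 0.05, higher in sires by 5.94 points at 47100 bp. None of the 126 windows of Slco1a5 and none of the 163 of Slco2a1 had one, in either sex comparison. Of all windows only 0.679% had one in parents and 0.249% in F1 animals, so that finding none says little about these genes. The whole-region means of the members other than Slco1a1 and Slco1b2 differed by less than 1 point between the sexes in either generation.

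Between the strains, 2 of the 771 windows were called (0.259%), against 0.414% of all windows. Both were lower in B6, a direction called in 0.202% of all windows, and both lay in Slco2b1. At any size, 29 member windows had an adjusted p below 0.05 (3.76%, against 3.94% of all windows), 24 of them lower in B6. Of the 29, 20 lay in Slco2b1, 4 in Slco1b2, 3 in Slco1a6, 1 in Slco1a1 and 1 in Slco2a1. The median difference was -1.20 points over members and -0.75 over all windows. With at least 100 reads in every animal the count of called windows was 0, and on windows shifted by 250 bp it was 4, all in Slco2b1, 1 of them higher in B6.

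These counts stand beside an uneven spread of sequence differences between the strains. The list of SNVs (single-base differences between B6 and C3 or mm9) held 349 in the Slco2b1 region, or 5.86 per kb, against 1.14 per kb over the autosomes. The Slco2a1 region held 4, and the regions of the 6 members on chromosome 6 none. The whole cluster interval of 808595 bp held 1, and the nearest others lay 383 kb before it and 141 kb after it. Of the 613 CG dinucleotides of mm9 in the Slco2b1 region, 537 (87.6%) were in the count table, and 50 of the 76 missing ones lay at an SNV.

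The largest strain difference among the members lay in an intron of Slco2b1, in the window centred at 33100 bp (chr7:106826501-106827000, 2 CpGs). B6 animals ranged from 26.4 to 41.2% (median 33.1%) and C3 animals from 87.0 to 96.2% (median 92.3%). B6C3F1 animals ranged from 46.9 to 61.8% (median 58.1%) and C3B6F1 animals from 51.2 to 66.7% (median 57.5%). The 12 hybrids lay between the strains without overlap. The strain difference was -57.8 points (33.5% ± 5.77 against 91.3% ± 3.59, n = 6 each, limma adjusted p = 8.26e-13), and the mean of the strains was 62.4%, against 56.0% ± 5.45 in B6C3F1 and 58.2% ± 5.11 in C3B6F1. By CpG, the first (106826864) had 10.1% in B6 and 89.5% in C3, and the second (106826891) 55.7 and 92.6%. The window holds 2 SNVs, A199G and A350G (mm9 and B6 base, position from 1 at the window's start, C3 base), the nearer of them 14 bp from a CpG. Reads averaged 74.8 per B6 animal and 55.5 per C3 animal. All reads had been aligned to mm9, the sequence of a C57BL/6 mouse, and the part of alignment was not tested.

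The other strain window lies at 15100 bp (chr7:106844501-106845000, 5 CpGs), just upstream of the group of 3 transcript starts that begins 15531 bp into the gene. B6 animals ranged from 23.2 to 33.9% (median 30.8%) and C3 animals from 50.8 to 65.5% (median 57.9%), without overlap. B6C3F1 animals ranged from 24.4 to 55.6% (median 36.3%) and C3B6F1 animals from 41.0 to 58.5% (median 46.2%), overlapping one or both strains. The strain difference was -27.6 points (29.7% ± 4.04 against 57.3% ± 5.45, limma adjusted p = 4.81e-05). The mean of the strains was 43.5%, against 38.5% ± 10.96 in B6C3F1 and 47.5% ± 6.62 in C3B6F1. The 5 CpGs had 25.7, 37.5, 26.5, 26.3 and 32.5% in B6 and 14.2, 53.3, 81.2, 77.0 and 91.1% in C3, so that the first went the other way. The window holds 3 SNVs, G156A, C344T and C421G, and mean reads were 135 in B6 and 93.0 in C3. Within 500 bp of the first of these starts the strains had 23.0 and 19.5%. Both stretches are given from mm9, plus strand, with the CpGs of the count table in capitals. The stretch at 15100 bp shows 3 of the 5 CpGs of its window, and the first CpG is not among them.
Slco2b1 33100 bp, chr7:106826844-106826912: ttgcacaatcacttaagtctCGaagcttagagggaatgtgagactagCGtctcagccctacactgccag
Slco2b1 15100 bp, chr7:106844840-106844961: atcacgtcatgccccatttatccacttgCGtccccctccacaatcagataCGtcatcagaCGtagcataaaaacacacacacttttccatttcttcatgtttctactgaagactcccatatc

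**Figure D5:**
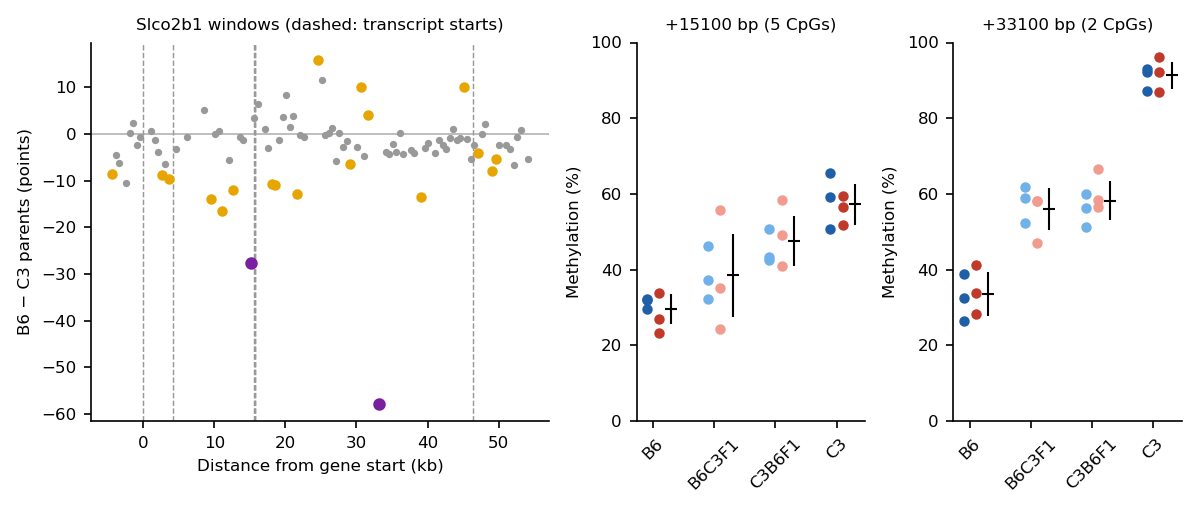
Left, difference between B6 and C3 parents (points, B6 minus C3) in each Slco2b1 window against distance from the gene start (kb), with transcript starts dashed, called windows purple and others with an adjusted p below 0.05 orange. Middle and right, methylation (%) of single animals (blue male, red female) with mean and SD of each group of 6 in the windows at 15100 and 33100 bp, where the hybrids' means of 38.5 to 58.2% lie between those of B6 and C3.

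Of the 20 Slco2b1 windows with an adjusted p below 0.05 between the strains, 16 were lower in B6 and 4 higher. Among those that were not called, the window at 11100 bp differed by -16.6 points (B6 minus C3, limma adjusted p = 6.82e-06) and the one at 24600 bp by 15.9 points (limma adjusted p = 0.0028). Its lowest window, at 30600 bp, had 22.3% in B6 and 12.2% in C3 (limma adjusted p = 0.000657), but over its CpGs with at least 5 reads in every animal the values were 19.5 and 13.4%, a difference of 6.14 points. In the SNV-poor cluster, Slco1b2 differed by -17.2 points at 33211 bp (limma adjusted p = 6.99e-05) and Slco1a6 by -13.8 points at 65792 bp (limma adjusted p = 0.00288).

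The remaining comparisons gave no called member window. In dams against F1 daughters limma called 0 of 771 (0.0174% of all windows), and 74 had an unadjusted p below 0.05 (9.60%, against 7.21% of all). In sires against F1 sons it called 0 (0.000965% of all), with 49 at the unadjusted level (6.36%, against 6.14% of all). In B6C3F1 against C3B6F1 it called 0 (0.000257% of all), with 50 (6.49%, against 6.09%). The sex difference of parents against that of F1 animals gave 0 (0.0121% of all), with 55 (7.13%, against 6.95%), and the sex difference of B6 against that of C3 0 (0.000289% of all), with 59 (7.65%, against 5.25%). A quasi-binomial test on the counts called 0 in each as well.

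For the Slco1a1 windows at 1233, 1733 and 4233 bp, the sex difference of the parents minus that of the F1 animals was -11.3, -6.71 and -9.67 points, which did not pass the test (limma adjusted p of 0.729 to 0.813). Dams stood 10.5 points above daughters at 1233 bp (limma adjusted p = 0.71). For the Slco1c1 window at 20343 bp the difference of the sex differences was -12.4 points (limma adjusted p = 0.504).

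Other genes of the pathway were counted in the same way. The 7 other genes listed by an Slco symbol had 982 windows. Of these, 0 were called between sires and dams (against 0.115% of all windows) or between sons and daughters (against 0.0618%). Between the strains 2 were called (0.204%, against 0.414% of all windows), both in Slco3a1 and 26.1 and 28.4 points higher in B6. The 7 export pumps (1141 windows) had 6 called between sires and dams (0.526%, against 0.115% of all windows). Of these, 4 lay in Abcg2, the breast cancer resistance protein, at -20.8 to -28.2 points, and 1 in Abcc2, the canalicular pump for bilirubin conjugates, at -21.3 points. The sixth, in Abcc4, was higher in sires by 23.5 points. One Abcg2 window was also called between sons and daughters (0.0876% of the 1141, against 0.0618% of all windows), with 44.8% in sires, 73.0% in dams, 43.9% in sons and 71.2% in daughters. Between the strains 2 export pump windows were called (0.175%, against 0.414% of all), 22.7 points higher in B6 in Abcc2 and 20.5 points higher in Abcc4.

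Sequence motifs were searched on both strands of the windows. The letters TTCNNNGAA, known as a STAT site, occurred in 17.3% of all tested windows, and among the 8 called member windows in the Slco1b2 one at 9711 bp. The letters TGTTTAC, known as a FOXA site, occurred in 7.31% of all, and among the called ones in the Slco1a1 window at 1233 bp. The HNF1 motif, an inverted repeat, occurred in 93 windows, none of them called member windows. Among promoters, TTCNNNGAA was found in 35.7% of 20708 and in those of Slco1a1, Slco1a6, Slco1b2 and Slco2b1, and TGTTTAC in 15.3% and in no member's.

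Of 384 promoters whose 8 group means had an SD of at least 5 points, the 5 with the most similar pattern to that of Slco1a1 were Cyp2d9 (Pearson r over the 8 group means 0.991), Dkk4 (0.975), 4833442J19Rik (0.974), 4930548G14Rik (0.971) and Mup7 (0.969). The Cyp2d9 promoter, that of a male-predominant cytochrome P450 of mouse liver, had 31.7% in B6 sires, 69.2% in B6 dams, 21.1% in C3 sires and 58.3% in C3 dams. The 8 means share the animals and libraries of the Slco1a1 values, and these correlations are descriptions.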

How the data were processed

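Liver DNA of 24 mice was analysed by whole-genome bisulfite sequencing, and FOXA1 ChIP samples of the series were not analysed here. The deposited tables hold raw counts per CpG, methylated in one and unmethylated in the other, by animal. Per the paper's methods and the submitters' processing notes, reads were aligned to mm9 and phage lambda with Bismark 0.7.8 and Bowtie 0.12.8, and duplicates, read ends and overlapping mates were removed. The notes also list CASAVA 1.8.2, cutadapt 1.2.1, Picard 1.110, bedtools 2.24.0 and Bowtie 1.2. CpGs present in mm9 and both strains were kept. The SNV list came from whole-genome sequencing. All 48 count columns were used, and 0 others. As a percentage is a share of counts, depth sets its precision.

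Counts were summed in fixed 500-bp windows of the autosomes and in promoters. Those with 2 or more CpGs and a minimum of 30 reads per animal were tested. The value log2((methylated + 1)/(unmethylated + 1)) was fitted in limma 3.58.1 (R 4.3.3, arrow 21.0.0), with trended and robust variances, on the means of the 8 groups of 3 animals, and p-values were Benjamini-Hochberg adjusted over all windows or promoters. A call also needed a difference of at least 20 points. The per-CpG tools of the study were not run. Alternatives changed the minimum difference, reads, CpGs, pseudocount, scale, window grid, promoter width, depth or test, used the replicate number as a block, or left out 1 animal. The script was tested on simulated data. Tables were handled in Python 3.11.15 (pandas 2.3.3, numpy 2.4.6, scipy 1.17.1, Biopython 1.88). Genes were those of GENCODE for mm9, and coordinates count from 1.

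The members and all lists were chosen with earlier results of these data known. The list of other hepatic uptake carriers is not reported here. Named by rule were the members with their promoters, up to 5 called windows per direction and comparison by size, each member's window of lowest methylation, and the 5 promoters most like that of the member with the largest sex difference. Replicates were separate animals. The paper states that the animals came from families of a sire, a dam, a son and a daughter. The labels do not tell which animals form a family, so the main fit did not pair them. Deviations from the group means correlated at -0.0088 to 0.0613 (median 0.0039) in 84 pairs of same-numbered animals of different groups. In 168 pairs of different numbers the correlations were -0.0324 to 0.0121 (median -0.0017). Pairing by number is therefore not excluded.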

Additional observations from a re-analysis of the deposited data

Results flagged for a closer look

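In the 16 windows and 8 promoters named by the rules or singled out as called, each of the 4 sets of 6 sires, dams, sons and daughters was checked for an animal far from the others by the gap to its nearest neighbour over the range of the set (Dixon's test). For 6 like animals chance gives one in about 1 of 20 sets, and 5 values stood apart in 96 sets. Each set pools both strains or both crosses, and some windows and promoters share CpGs, so that this rate is only a rough guide. In the Slco1a1 window at 1233 bp, C3B6F1 son 1 had 51.4%, and the other 5 sons had 14.9 to 27.9%. In the Slco1a1 window at 4233 bp, B6C3F1 daughter 2 had 64.0%, and the other 5 daughters had 75.7 to 81.6%. In both Slco1a1 windows the animal lay toward the opposite sex. The other 3 values belong to C3B6F1 daughter 3, which was above the other 5 daughters each time. It had 37.4% at the Slco1b2 promoter (others 30.5 to 32.0%), 25.5% in the Slco1a4 window at -2030 bp (others 14.0 to 18.1%) and 3.74% in the Slco2a1 window at -67 bp (others 0.584 to 1.25%).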

How the results depend on the processing

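Few CpGs and few reads limit these windows. Between sires and dams the main count of 6 called member windows became 13 with a minimum of 10 points (1.69%, against 0.524% of all windows), and 0 with at least 5 CpGs or at least 100 reads. It was 4 with thinned reads, 7 on shifted windows (1 of them higher in sires) and 5 to 7 with 1 animal left out. Between sons and daughters the main count of 2 became 6 with 10 points (0.778%, against 0.22% of all), 0 with at least 5 CpGs or 100 reads, and 1 with thinned reads. On shifted windows it was 3, all in Slco1a1. With 1 animal left out it was 1 to 4, namely 1 without B6C3F1 son 3 or C3B6F1 son 2 and 4 without C3B6F1 son 1. A pseudocount of 5 and the quasi-binomial test each gave 3. Between the strains the main count of 2 became 16 with 10 points (2.08%, against 2.13% of all), 1 with at least 5 CpGs, 0 with at least 100 reads, 4 on shifted windows and 1 with thinned reads. The causes of the changes on shifted windows and with thinned reads were not tested. Of the promoters, 1 (Slco1a1) instead of 0 was called between sires and dams with 10 points, with 500 bp on each side or with thinned reads, and 0 to 1 with 1 animal left out. Between sons and daughters 1 instead of 0 was called with 10 points or 500 bp on each side. No difference of a called window or of the Slco1a1 promoter changed its sign. Windows of the shifted grid are not the same windows and were left out of that check. With replicate number as a block (replicate block) the counts were 2, 6 and 2 for strains, parents and F1 animals and 0 elsewhere, as without it. Of the 24 animals, 20 correlated best with an animal of their own number, a hint of pairing from the data that the labels do not give. When CpGs under 5 reads were dropped, 4 of 128 group values moved by more than their SD, all in Slco2b1 at 30600 bp.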

Other observations

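Between the member regions, the cluster on chromosome 6 holds 391 more tested windows, and those named here were chosen after their values were seen. Of them, 4 (1.02%) were called between sires and dams and 4 (1.02%) between sons and daughters, each lower in males, against 0.115% and 0.0618% of all windows. The one with the greatest difference, at chr6:141541501-141542000, lies 23260 bp past the end of Slco1c1, in the gap before Slco1b2. It had 32.4% ± 5.53 in sires and 76.0% ± 5.85 in dams (-43.6 points, limma adjusted p = 8.45e-08), and 28.6% in sons and 63.5% in daughters (-34.9 points, limma adjusted p = 1.13e-05). The window next to it, at chr6:141541001-141541500, had 63.2% in sires and 85.2% in dams (-22.0 points, limma adjusted p = 0.000225).

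The other called windows lay in gene models of the cluster that are not among the members. Whether these gene models belong to the Slco family was not examined. A window in Gm5724, at chr6:141722001-141722500, had 49.7% in sires, 75.4% in dams, 51.5% in sons and 72.4% in daughters (parents -25.7 points, limma adjusted p = 0.000291). A window in Gm6614, at chr6:141941001-141941500, had 21.7, 54.9, 22.1 and 45.7% (parents -33.2 points, limma adjusted p = 0.00111).

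Between the strains, 1 of the 391 windows (0.256%, against 0.414% of all) was called, 24.9 points higher in B6, at chr6:141815501-141816000, and 16 (4.09%, against 3.94% of all) had an adjusted p below 0.05. The list of SNVs holds 1 entry in the whole cluster interval, and variants other than the listed single-base ones were not analysed here.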
